A study of Sus scrofa with 24 samples.

Results

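Intramuscular and subcutaneous preadipocytes of the pig were compared by miRNA sequencing at day 0 of culture, before adipogenic induction. Cells of both sources came from Yorkshire piglets 6 days old. The BF-0d group held 3 libraries of cells from back subcutaneous fat (BF), and the IMF-0d group held 3 libraries of cells from the Longissimus dorsi muscle, the source of intramuscular fat (IMF). The tissues were digested with collagenase, the cells were plated in growth medium, and induction medium was added only at near confluency, so neither group had received it. The study used 3 piglets, and the labels do not link a library to a piglet. Values are TPM, here the reads of an entry per 1000000 reads assigned to miRNAs. Of the 1587 entries of the table, 430 averaged 1 TPM or more across the 24 libraries of the series and were kept, namely 270 of 363 known miRNAs and 160 of 1224 newly predicted ones (novel_miR). The entry just inside this limit, novel_miR_994, had a mean of 1.0022 TPM and the one just outside, novel_miR_207, a mean of 0.9897 TPM. Each of the 6 libraries had reads for 418 to 420 of the 430 entries.

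The BF-0d libraries held between 11061096 and 16863560 reads on miRNAs and the IMF-0d libraries between 9143123 and 10660893, so that 1 read was worth 0.0593 to 0.109 TPM. miR-21-5p alone took 53.0% to 60.5% of the reads. The 10 most abundant miRNAs of each library took 89.2% to 90.1% of the reads in BF-0d and 92.0% to 92.4% in IMF-0d. Replicate 2 stood apart in both sources: the chi-square of its read counts against replicates 1 and 3 was 458 to 644 per degree of freedom, against 71.5 to 72.1 between replicates 1 and 3. Without replicate 2 of both sources, 82 of the 126 calls described next were made again.

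miRNAs are short RNAs that guide Argonaute proteins to messenger RNAs, mainly through their seed, bases 2 to 8 of the mature strand. Many are transcribed together from clusters or from introns of coding genes, so neighbours often share a promoter. The imprinted DLK1-DIO3 domain carries one of the largest miRNA clusters of mammals, and the HOX clusters carry miR-10, miR-196 and miR-615 among genes whose expression records the position of a cell along the body axis. Fat cells of different depots are known to keep such positional patterns in culture. miR-21, miR-143 and let-7 are abundant in cultured mesenchymal cells, while miR-1, miR-133, miR-206 and miR-499 are markers of skeletal muscle.

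The mature sequences behind the main differences are printed 5′ to 3′ as the study's miRNA list gives them, with T for U and the seed in capitals. Pairs with a shared seed are set next to each other, because their levels moved apart or together in ways the results turn on.
miR-196b-5p: tAGGTAGTttcctgttgttggg
miR-196a: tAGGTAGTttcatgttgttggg
miR-146b: tGAGAACTgaattccataggc
miR-146a-5p: tGAGAACTgaattccatgggtt
miR-381-3p: tATACAAGgacaagctctctgt
miR-127: tCGGATCCgtctgagcttggct
miR-210: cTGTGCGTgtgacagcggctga
miR-10a-5p: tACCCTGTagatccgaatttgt
miR-10b: tACCCTGTagaaccgaatttgt
miR-99a-5p: aACCCGTAgatccgatcttgtg
miR-100: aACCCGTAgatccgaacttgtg
let-7c: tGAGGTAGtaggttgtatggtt
let-7a: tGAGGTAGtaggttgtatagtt
miR-27b-3p: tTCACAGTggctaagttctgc
miR-27a: tTCACAGTggctaagttccgc
novel_miR_461: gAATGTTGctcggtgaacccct
novel_miR_716: aAACAAACatggtgcacttctt
Counted from 1 at the 5′ end of the first-named miRNA, the pairs differed by C12A (miR-196b-5p to miR-196a), T12A (miR-10a-5p to miR-10b), T16A (miR-99a-5p to miR-100), T19C (miR-27b-3p to miR-27a) and A19G (let-7a to let-7c). miR-146a-5p and miR-146b differed by G18A and T21C, and the listed miR-146b was 1 base shorter, with 21 against 22 bases. No sequence was listed for miR-378 or novel_miR_650, which are described by their values alone.

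Among the 430 entries, 126 were DE-miRNAs, that is, they had a limma false discovery rate (FDR) under 0.05 and a fold change over 1.5 on log2(TPM + 1), which is 29.3% of those tested. Of these, 58 (13.5% of those tested) were higher in IMF-0d and 68 (15.8%) were higher in BF-0d. The 3 IMF-0d and 3 BF-0d libraries did not overlap for any of the 126, whereas they were apart for 205 of all 430 entries (47.7%). Differences over 2-fold were found for 66 DE-miRNAs, 45 of them higher in IMF-0d. The direction of the calls differed between low and high levels: at a mean of 1 to 10 TPM, 28 were higher in IMF-0d and 15 higher in BF-0d of 206 tested, and at 100 to 1000 TPM, 8 and 26 of 75. Known miRNAs were mostly higher in BF-0d, with 66 against 28, and new entries mostly higher in IMF-0d, with 30 against 2. The DE-miRNAs made up 7.45% of the BF-0d reads and 6.25% of the IMF-0d reads (means of 3 libraries), most of the reads belonging to miRNAs that did not pass.

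The balance of directions depended on the scaling. The median log2 fold change of all 430 entries was -0.13, and it was -0.01 after median-of-ratios scaling. That scaling gave 63 miRNAs higher in IMF-0d and 38 higher in BF-0d, so the share higher in IMF-0d rose from 46.0% to 62.4% of the calls. It was 67.3% with edgeR and 63.1% with DESeq2 on the whole reads. The 68 miRNAs higher in BF-0d were also fewer without BF-0d replicate 1 (41), BF-0d replicate 3 (42) or replicate 2 of both sources (40). All 126 kept their direction in each of these fits, of which the one without replicate 2 of both sources was chosen after the data had been seen and gave 89 DE-miRNAs, 49 of them higher in IMF-0d. Of the 126, 6 higher in IMF-0d and 3 higher in BF-0d averaged under 1 TPM over all libraries of the other source and so passed the limit on levels only through the source in which they were high. Among them are miR-196a, miR-138, miR-450c-3p and novel_miR_966, an entry of the DIO3 scaffold.

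**Figure D1:**
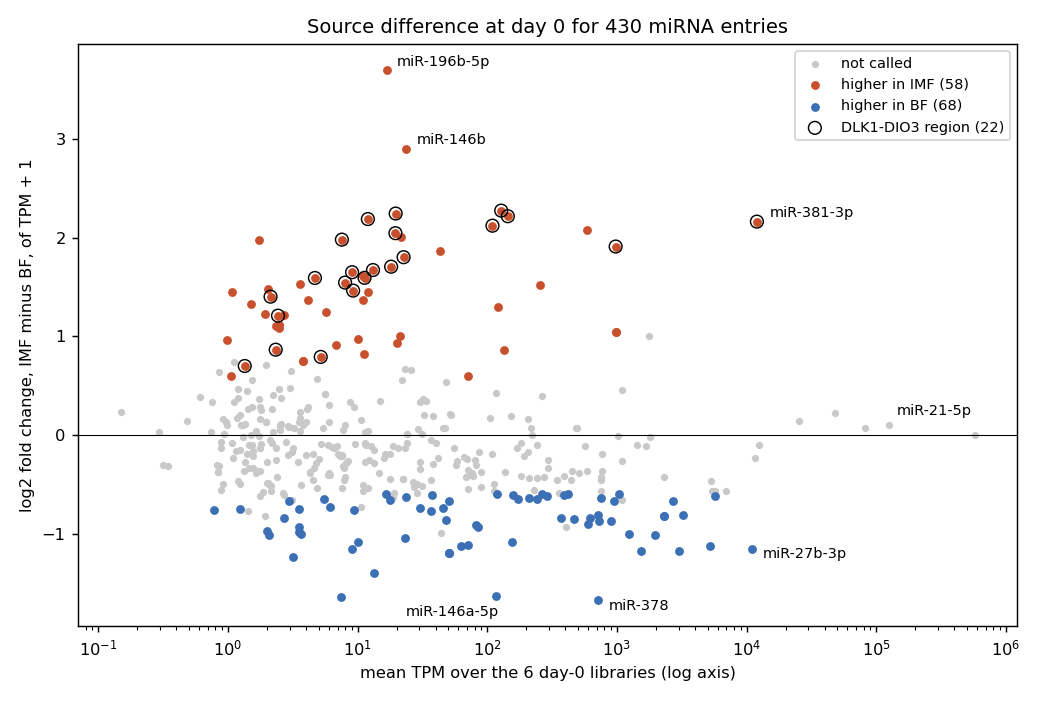
Mean TPM over the 6 day-0 libraries (log axis) against the log2 fold change of TPM + 1, IMF-0d minus BF-0d, for 430 miRNA entries, with DE-miRNAs in colour and the 22 entries of the DLK1-DIO3 region ringed. Entries with no read at day 0 have no place on the log axis. The ringed entries all lie above 0, at 0.70 to 2.27, and miR-21-5p, the most abundant, lies at 0.00.

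Of the HOX cluster miRNAs, 2 of 6 tested were higher in IMF-0d and 3 were higher in BF-0d, against 13.5% and 15.8% of all entries. miR-196b-5p, encoded on chromosome 18 (chr18:45404319-45404396 of Sscrofa11.1, 198 bp from HOXA9), showed the largest log2 fold change of TPM + 1. It was at 1.9, 1.26 and 1.48 TPM in the BF-0d libraries and at 36.9, 26.9 and 32.3 TPM in the IMF-0d libraries. The means were 1.55 ± 0.324 and 32.0 ± 4.98 TPM (SD, n = 3 each), a ratio of 20.7, with a log2 fold change of 3.69 ± 0.18 (SE; limma, FDR = 0.000371). Its paralog miR-196a, 1467 bp from HOXC10 on chromosome 5 and with a second exact copy in the genome, was scarce. It averaged under 1 TPM over the BF libraries and entered the test through its level in IMF, so its difference and its place in the count of HOX miRNAs are a description. miR-196a had 0.54, 0.60 and 0.65 TPM in BF-0d and 3.85, 3.72 and 2.91 TPM in IMF-0d, a log2 fold change of 1.49 ± 0.10 (limma, FDR = 0.000698).

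miR-10a and miR-615 of the HOX clusters went the other way. miR-10a-5p, 6087 bp from HOXB3 on chromosome 12, had 6563, 8068 and 6759 TPM in BF-0d against 3160, 3845 and 2846 TPM in IMF-0d (log2 fold change -1.12 ± 0.15, limma, FDR = 0.00418). The other arm of its hairpin, miR-10a-3p, was lower still in IMF-0d, at 3.12 ± 0.882 against 11.7 ± 2.42 TPM. miR-615, in an intron of HOXC5 on chromosome 5, had a mean of 63.2 TPM in BF-0d and 39.0 TPM in IMF-0d (log2 fold change -0.67, limma, FDR = 0.0181). Its call was lost after median-of-ratios scaling (FDR = 0.0736). miR-10b, on chromosome 15, did not pass: it had 9636, 17254 and 10417 TPM in BF-0d and 9351, 15156 and 7606 TPM in IMF-0d, with replicate 2 the highest in both. The seed shared by both miR-10 members summed to 19566 ± 5008 TPM in BF-0d and 13987 ± 4462 TPM in IMF-0d.

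All 13 tested miRNAs of the DLK1-DIO3 list were higher in IMF-0d, with a median log2 fold change of 1.91 against -0.13 over all entries. miR-381-3p was by far the most abundant of them, and it was among the 10 most abundant miRNAs of day 0. It had 4308, 4839 and 3957 TPM in BF-0d and 16928, 23010 and 19030 TPM in IMF-0d, so the lowest IMF-0d library was well above the highest BF-0d library. The means of 4368 ± 444 and 19656 ± 3089 TPM differed by a log2 fold change of 2.16 ± 0.15 (limma, FDR = 0.000698). miR-127, which is transcribed antisense to the imprinted gene RTL1, had 410, 432 and 387 TPM in BF-0d and 1513, 1425 and 1700 TPM in IMF-0d (log2 fold change 1.91 ± 0.09, FDR = 0.000371).

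The other members of the domain differed by similar factors over a wide range of levels. miR-370 rose to 213 ± 78.5 TPM in IMF-0d from 43.0 ± 15.6 TPM in BF-0d, and miR-758 to 179 ± 19.1 from 40.3 ± 1.72 TPM. Both arms of the miR-493 hairpin were higher in IMF-0d: the 5p arm by a log2 fold change of 2.24 and the 3p arm by 2.19. The same held for both arms of miR-136, at 1.21 and 1.67. miR-299, miR-411, miR-323, miR-382 and miR-432-5p had log2 fold changes between 1.55 and 1.98 with means of 2.41 to 8.00 TPM in BF-0d and 12.5 to 28.3 TPM in IMF-0d. All 13 stayed DE-miRNAs after median-of-ratios scaling, with edgeR, with DESeq2 and without any single library, and 12 of them with no filter on low values.

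The domain is split in the assembly used by the study. On chromosome 7, 7 DE-miRNAs from miR-493 to miR-370 lay within chr7:121697837-121736972, beside or antisense to RTL1. On an unplaced scaffold of Sscrofa11.1 that carries DIO3, 14 entries lay in 40.6 kb on the plus strand, between scaffold positions 30003 and 70569 and 434 kb from DIO3. These were 5 known miRNAs (miR-411, miR-299, miR-323, miR-381-3p and miR-382) and 9 new entries. All 14 were higher in IMF-0d, though novel_miR_966 entered the test through its level in IMF. The 2 entries placed elsewhere on the scaffold did not pass: novel_miR_912, 939 bp from DIO3 on the other strand, had 1.49 TPM in BF-0d and 0.90 TPM in IMF-0d, and novel_miR_542, near ASPG, had 480 and 509 TPM.

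The log2 fold changes ran from 0.70 to 2.22 for the new entries on the scaffold and from 1.55 to 2.16 for the known ones. novel_miR_461 had 51.9, 57.3 and 42.2 TPM in BF-0d and 213, 229 and 271 TPM in IMF-0d (log2 fold change 2.22 ± 0.16, limma, FDR = 0.000698). novel_miR_716 had 8.498, 6.43 and 6.17 TPM in BF-0d and 28.3, 37.5 and 30.5 TPM in IMF-0d (log2 fold change 2.05 ± 0.18, FDR = 0.00144). The smallest log2 fold change of TPM + 1 was that of novel_miR_1205, with means of 0.79 and 1.903 TPM, and the smallest ratio of means that of novel_miR_683, with 3.47 and 6.93 TPM. With miR-758, which was not placed, 22 entries belonged to the domain by list or by position, 37.9% of the 58 DE-miRNAs higher in IMF-0d. They summed to 4535 to 5464 TPM in the BF-0d libraries and to 19290 to 25262 TPM in the IMF-0d libraries. Without miR-381-3p the sums were 579 to 633 and 2252 to 2718 TPM. In the fits that left out 1 library 20 or 21 of the 22 passed, 19 passed without replicate 2 of both sources, 18 with no filter on low values and 21 with the replicate block, which removed novel_miR_683. All 22 stayed positive in these fits.

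**Figure D2:**
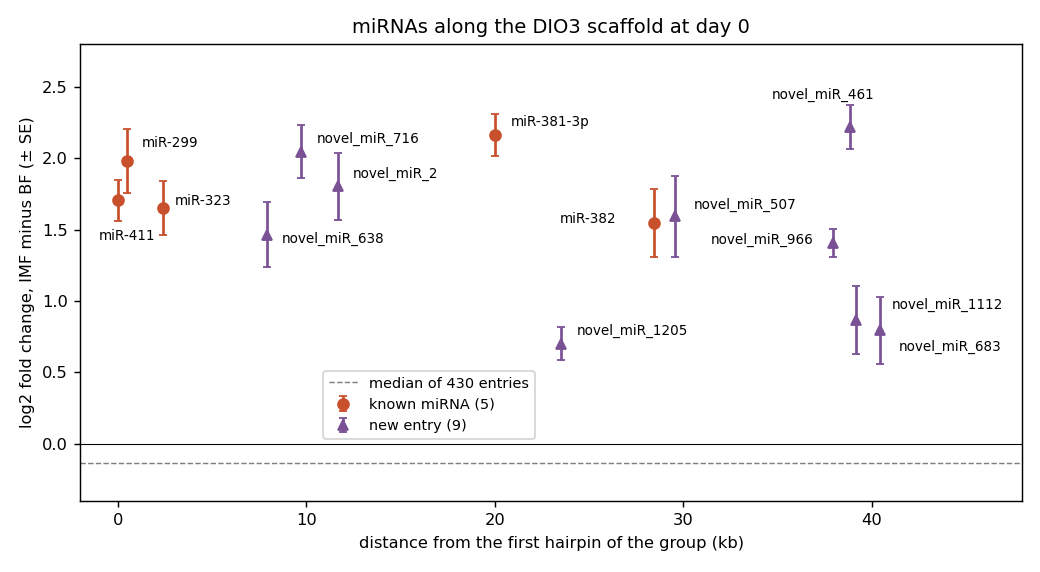
The log2 fold change (IMF-0d minus BF-0d, bars are SE of the limma fit) of the 14 entries on the DIO3 scaffold against their distance in kb from the first hairpin. Known miRNAs and new entries are mixed along the 40.6 kb and every point lies above the dashed median of all 430 entries, -0.13.

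The paralogs miR-146a-5p and miR-146b, regulators of inflammatory signalling with a common seed, went in opposite directions. miR-146b had 6.24, 3.85 and 4.45 TPM in BF-0d and 47.3, 32.4 and 48.2 TPM in IMF-0d, a log2 fold change of 2.90 ± 0.24 (limma, FDR = 0.00105). miR-146a-5p had 241, 143 and 153 TPM in BF-0d and 55.6, 59.9 and 51.8 TPM in IMF-0d, a log2 fold change of -1.62 ± 0.22 (limma, FDR = 0.00451). In sum the seed stood at 184 ± 55.7 TPM in BF-0d and 98.4 ± 5.47 TPM in IMF-0d. Among the 43 seeds that 2 or more entries shared, this was the only one with DE-miRNAs in both directions. miR-146a-5p lies on chromosome 16, 60360 bp from PTTG1, and the precursor of miR-146b was not placed.

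The miR-224 and miR-452 pair, encoded within 1133 bp in an intron of GABRE on chromosome X, was almost absent from BF-0d. miR-224 had 2, 1 and 1 reads in the BF-0d libraries, and 3.75, 3.94 and 2.49 TPM in IMF-0d. Over pooled reads, 100 in IMF-0d against 4 in BF-0d, the rate was 36.5 times higher in IMF-0d (exact 95% interval 13.8 to 137, counting error only). miR-452 had 3, 0 and 1 reads in BF-0d and 60 in all of IMF-0d, a rate 21.9 times higher (exact 95% interval 8.13 to 83.05). Both passed the limma test (FDR = 0.000822 and 0.00092), but levels this low rest on few reads.

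miR-210, the miRNA most closely tied to hypoxia, was higher in IMF-0d, at 59.8, 76.9 and 67.0 TPM against 17.99, 15.4 and 20.2 TPM in BF-0d (log2 fold change 1.87 ± 0.15, limma, FDR = 0.00105). The miR-182, miR-183 and miR-96 cluster, which spans 4645 bp of chromosome 18, was higher in IMF-0d for 3 of 3 members, beside 13.5% of all entries. miR-182 had 102, 173 and 112 TPM in BF-0d and 363, 544 and 243 TPM in IMF-0d, with replicate 2 again the highest of each source (log2 fold change 1.52 ± 0.35, FDR = 0.0238). miR-183 and miR-96-5p had log2 fold changes of 1.295 (FDR = 0.0261) and 1.37 (FDR = 0.015). The cluster depended on single libraries: 1 member passed without BF-0d replicate 1 or without IMF-0d replicate 1, 2 passed without IMF-0d replicate 2, and 0 passed without BF-0d replicate 3 or with no filter on low values. In these fits all 3 kept their direction. Both arms of miR-129a also passed, with miR-129a-5p at 648 TPM in BF-0d and 1330 TPM in IMF-0d. miR-129b is listed with the same mature sequence and had nearly the same values, so the pair is 1 measurement.

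**Figure D3:**
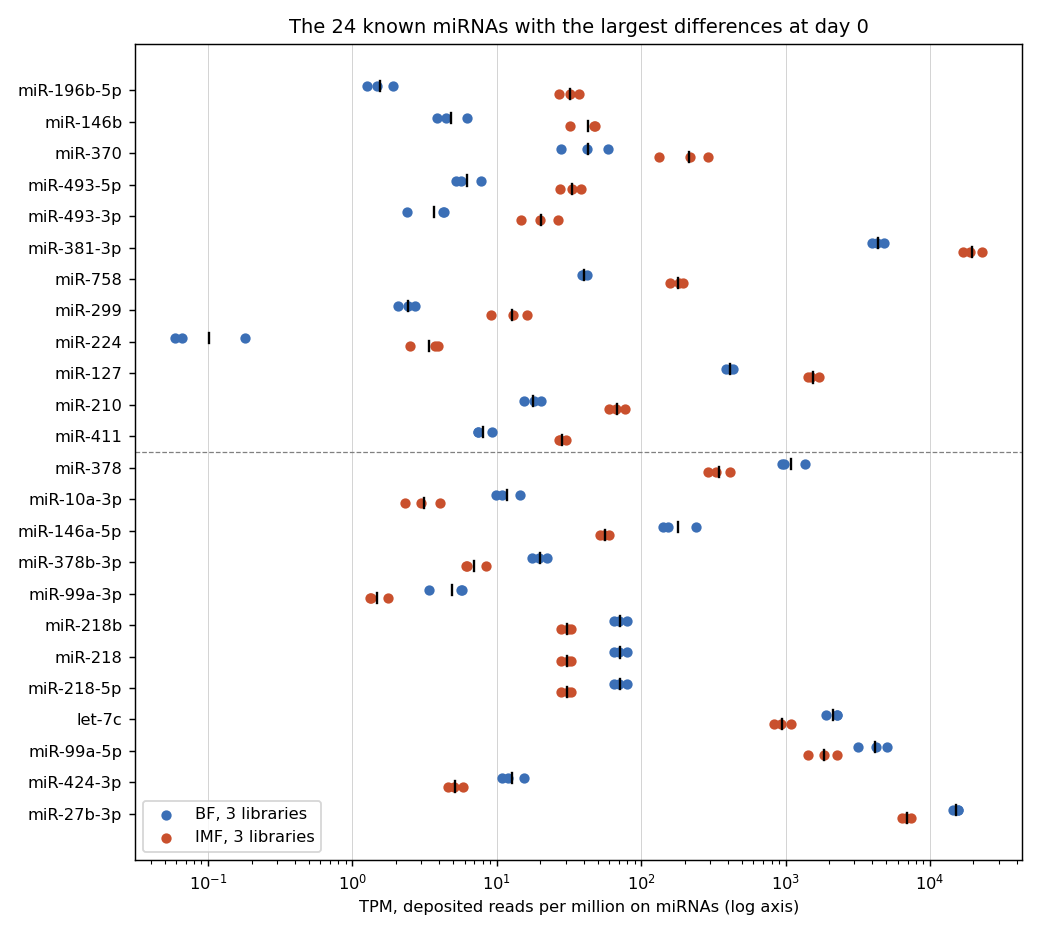
TPM (log axis) in each of the 3 BF-0d and 3 IMF-0d libraries for the 12 known miRNAs with the largest log2 fold changes (above the dashed line) and the 12 with the smallest (below it), with vertical bars for the means. The groups do not overlap for any of the 24, the rule by which they were chosen, and the levels span from under 0.1 TPM (miR-224 in BF-0d) to 23010 TPM (miR-381-3p in IMF-0d).

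Among the miRNAs higher in BF-0d, miR-378 had the lowest log2 fold change, -1.66 ± 0.20 (limma, FDR = 0.003). miR-378, which is known to act on lipid metabolism and mitochondria, had 949, 1360 and 983 TPM in BF-0d and 330, 414 and 290 TPM in IMF-0d. miR-378b-3p followed it at a lower level, with 19.8 ± 2.38 against 6.92 ± 1.31 TPM (log2 fold change -1.40, FDR = 0.00412). miR-218, whose exact copies lie in introns of SLIT2 on chromosome 8 and SLIT3 on chromosome 16, had 79.7, 70.1 and 64.8 TPM in BF-0d and 27.95, 32.7 and 31.4 TPM in IMF-0d (log2 fold change -1.19 ± 0.12, FDR = 0.00202). The entries miR-218, miR-218-5p and miR-218b carry the same bases up to position 21 and nearly identical values, so these 3 of the DE-miRNAs are 1 measurement.

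miR-99a and let-7c, 820 bp from end to end in an intron of the gene LOC106508546 on chromosome 13, were lower in IMF-0d together. miR-99a-5p had 5045, 3165 and 4254 TPM in BF-0d and 1840, 1440 and 2257 TPM in IMF-0d (log2 fold change -1.17 ± 0.24, limma, FDR = 0.0164), and miR-99a-3p had a log2 fold change of -1.24. let-7c had 2264, 2261 and 1895 TPM in BF-0d and 1090, 828 and 933 TPM in IMF-0d (log2 fold change -1.17 ± 0.13, FDR = 0.00264). miR-100, 1 base from miR-99a-5p, was at 24159 ± 1412 TPM in BF-0d and 26694 ± 391 TPM in IMF-0d and did not pass (log2 fold change 0.15, FDR = 0.261). The seed shared by miR-99a-5p, miR-99b and miR-100 summed to 30100 ± 1846 TPM in BF-0d and 30323 ± 329 TPM in IMF-0d.

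The let-7 seed also summed to overlapping totals: 4 of the 11 tested let-7 and miR-98 entries were lower in IMF-0d, namely let-7a, let-7c, let-7d-5p and let-7f-5p, beside 15.8% of all entries and 24.4% of the known ones, but the 8 entries with that seed summed to 63608 ± 7382 TPM in BF-0d and 64512 ± 9229 TPM in IMF-0d. The most abundant of them, let-7i-5p, did not pass, at 44531 ± 7128 and 52309 ± 9077 TPM (FDR = 0.426). let-7a had 2802, 2735 and 2303 TPM in BF-0d and 1535, 1193 and 1190 TPM in IMF-0d (log2 fold change -1.01 ± 0.14, limma, FDR = 0.00499). let-7a and let-7c passed also after median-of-ratios scaling, let-7d-5p and let-7f-5p did not.

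The cluster of miR-424, miR-503, miR-450 and miR-542, within 6395 bp of chromosome X near PLAC1 and known for members that restrain the cell cycle, was lower in IMF-0d for 8 of 10 tested entries, beside 15.8% of all entries and 24.4% of the known ones, with a median log2 fold change of -0.96 against -0.13 over all entries. miR-450c-5p, its most abundant member, had 1613, 1682 and 1642 TPM in BF-0d and 799, 877 and 794 TPM in IMF-0d (log2 fold change -0.9995 ± 0.07, limma, FDR = 0.000698). miR-424-5p fell from 31.7 ± 5.44 to 14.7 ± 0.665 TPM and miR-503 from 62.0 ± 5.78 to 33.7 ± 2.91 TPM. Both arms of miR-424 and of miR-450c passed. The members of the cluster summed to 3218 to 3765 TPM in BF-0d and 1528 to 2140 TPM in IMF-0d. All 10 passed when the replicate number was a block, 7 after median-of-ratios scaling, and 6 to 9 when 1 library was left out. miR-450b-3p and miR-450c-3p averaged under 1 TPM over the IMF libraries and entered the test through their level in BF. Their places in the counts of this cluster are therefore a description.

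miR-27b-3p, an inhibitor of adipogenesis in several cell models, was the most abundant DE-miRNA higher in BF-0d. It had 15552, 14497 and 15651 TPM in BF-0d and 6449, 6790 and 7428 TPM in IMF-0d (log2 fold change -1.15 ± 0.09, limma, FDR = 0.00092). Its neighbour miR-23b, in the same intron of C10H9orf3 on chromosome 10, fell from 781 ± 39.3 to 418 ± 29.3 TPM, while the miR-24 entries of the list did not pass. With the replicate block miR-24-3p passed (log2 fold change -0.65, limma, FDR = 0.0325, against 0.107 without the block), as it did in the fit of all 24 libraries (FDR = 0.0454), and miR-24-2-5p passed without BF-0d replicate 2 (FDR = 0.0304). The paralogous cluster on chromosome 2 held miR-27a and miR-23a, which had log2 fold changes of -0.87 (FDR = 0.0222) and -0.59 (FDR = 0.0106). After median-of-ratios scaling miR-23a fell short of the fold limit (-0.43). In sum the miR-27 seed stood at 16407 ± 841 TPM in BF-0d and 7522 ± 563 TPM in IMF-0d, unlike the let-7 and miR-99 seeds, whose sums overlapped between the sources.

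Further families held DE-miRNAs higher in BF-0d, and none of their members was higher in IMF-0d. Their counts stand beside a share of 15.8% higher in BF-0d over all entries and of 24.4% over the known miRNAs. miR-30 had 3 of 10 tested (miR-30b-5p, miR-30c-5p and miR-30d), near the share of the known miRNAs, with miR-30d at 4123 ± 202 against 2352 ± 174 TPM. After median-of-ratios scaling miR-30d alone of these passed, and with edgeR 0 of the 10 entries did (miR-30d at -0.57). miR-181 had 3 of 3, with miR-181a at 122, 85.9 and 83.4 TPM in BF-0d and 50.7, 30.1 and 54.7 TPM in IMF-0d. After median-of-ratios scaling miR-181a alone of the 3 passed, and none passed with miR-21-5p taken out of the total, with no filter on low values, without BF-0d replicate 1, without BF-0d replicate 3 or without replicate 2 of both sources. miR-199 and miR-214 had 3 of 6: miR-199a-3p and miR-199b-3p, which had identical values and are 1 measurement, at 2985 ± 863 against 1668 ± 255.6 TPM, and miR-214-3p at 908 ± 163 against 516 ± 57.0 TPM. Of these miR-214-3p alone passed after median-of-ratios scaling, and 0 of 6 passed with edgeR or with no filter. miR-199b-5p, of the 10 most abundant, had an FDR of 0.0121 but a fold change under the limit (log2 fold change -0.56), and it passed without BF-0d replicate 1 (-0.641) or IMF-0d replicate 2 (-0.591).

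Single members passed in other families, all higher in BF-0d, beside the share of 15.8% over all entries. These were miR-92a (log2 fold change -0.64) among 10 tested of the miR-17-92 cluster and its paralogs, miR-195 (-0.64) among 5 of its family, miR-152 (-0.66) among 5 of the miR-148 family, and miR-138 (-0.76). The last of these, miR-138, entered the test through its level in BF. miR-103, in an intron of PANK2 and with a second exact copy in the genome, had a log2 fold change of -0.67 and miR-26b-5p, in an intron of CTDSP1, one of -0.85. After median-of-ratios scaling miR-92a (-0.47), miR-195 (-0.51), miR-152 (-0.50) and miR-103 (-0.50) no longer passed, while miR-138 and miR-26b-5p did. No member passed of miR-143 and miR-145 (4 tested), miR-29 (4), miR-221 and miR-222 (3), the miR-532 cluster (6), miR-132 and miR-212 (2), miR-130, miR-301 and miR-454 (5), miR-193, miR-365 and miR-455 (6), or miR-34 and miR-335 (3). In the miR-532 cluster, miR-500-5p was called higher in IMF-0d after median-of-ratios scaling (log2 fold change 0.715), with edgeR, with DESeq2 and without BF-0d replicate 1, and miR-660 higher in BF-0d without BF-0d replicate 2. miR-29b and miR-221-5p were called higher in IMF-0d with edgeR (0.918 and 0.650) and with DESeq2 (0.873 and 0.608). miR-34a was called higher in BF-0d without BF-0d replicate 2, IMF-0d replicate 2, IMF-0d replicate 3 or replicate 2 of both sources, and miR-34c without IMF-0d replicate 3.

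Of the 72 named DE-miRNAs, 26 lost their call when 1 of the 6 libraries was left out, between 13 and 23 of them in any one fit, and 18 lost it without replicate 2 of both sources. novel_miR_158 lost it without any of the 6 libraries. Beside the miR-182 cluster, calls were lost in 4 or 5 of the 6 fits for let-7d-5p, let-7f-5p, miR-92a, miR-133a-3p, miR-138, miR-181a, miR-181b, miR-181d-5p, miR-195, the miR-199 pair, miR-30c-5p, miR-450b-5p, miR-450c-3p, miR-499-5p, miR-615 and novel_miR_394. miR-27a lost it without BF-0d replicate 3, IMF-0d replicate 1 or IMF-0d replicate 2, and miR-30b-5p without BF-0d replicate 1, BF-0d replicate 3 or IMF-0d replicate 1. miR-23a lost it without BF-0d replicate 1 or IMF-0d replicate 3, miR-99a-5p without BF-0d replicate 3 or IMF-0d replicate 1, and miR-103 without IMF-0d replicate 2.

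**Figure D4:**
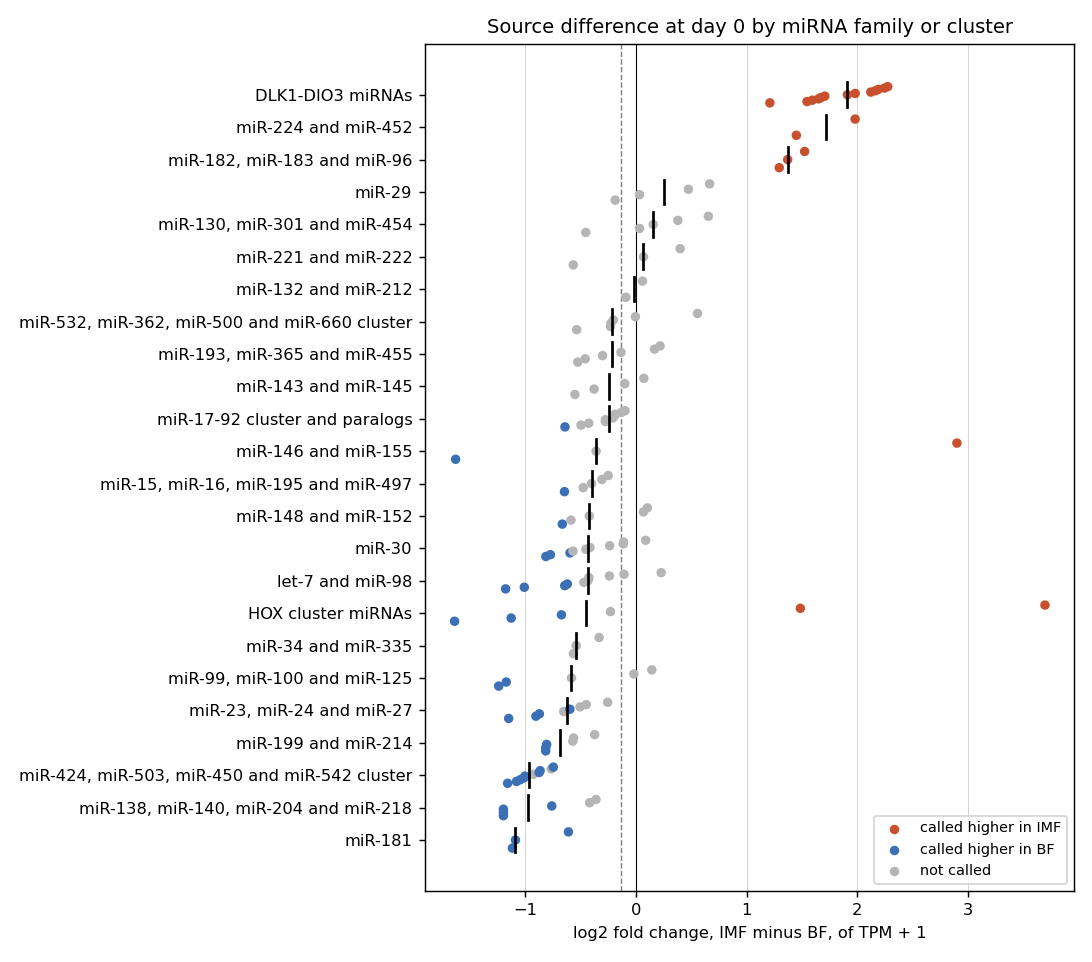
The log2 fold change (IMF-0d minus BF-0d) of each tested member of 24 miRNA families or clusters, with black bars for the medians and a dashed line for the median of all 430 entries. Only the DLK1-DIO3, miR-224 and miR-182 groups have medians above 1, and the HOX and miR-146 groups hold DE-miRNAs on both sides.

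Of 20 tested miRNAs reported to favour adipogenesis, 2 were higher in IMF-0d and 6 were higher in BF-0d, with a median log2 fold change of -0.30. Of 18 tested miRNAs reported to oppose it, 1 was higher in IMF-0d and 7 were higher in BF-0d, with a median of -0.45. The median of all 430 entries was -0.13, and 13.5% and 15.8% of them passed in each direction. Over the 270 known miRNAs the median was -0.33, with 10.4% higher in IMF-0d and 24.4% higher in BF-0d. After median-of-ratios scaling the counts were 2 and 3 for the first list and 1 and 5 for the second. The favouring miRNAs higher in IMF-0d were miR-146b and miR-210, and the opposing one was miR-224.

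Most of the miRNAs that filled the libraries did not pass the test. miR-21-5p had 584640, 541940 and 590870 TPM in BF-0d and 604560, 530010 and 588560 TPM in IMF-0d (log2 fold change 0.00 ± 0.15). miR-148a-3p was at 120730 ± 22156 and 130270 ± 27032 TPM, and miR-143-3p at 78979 ± 5084 and 83646 ± 12733 TPM. miR-151-3p had 11304, 17593 and 10102 TPM in BF-0d and 10138, 15637 and 10279 TPM in IMF-0d, replicate 2 being the highest in both. Of the 10 most abundant entries, miR-381-3p and miR-27b-3p were DE-miRNAs, in opposite directions. The entries outside these 10 had a summed mean of 105580 TPM in BF-0d and 77625 TPM in IMF-0d, a ratio of 0.735.

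The 7 muscle markers summed to 819 to 1013 TPM in BF-0d and 910 to 1739 TPM in IMF-0d, nearly all of it miR-1. miR-1 had 792, 931 and 981 TPM in BF-0d and 1253, 1707 and 885 TPM in IMF-0d and did not pass (log2 fold change 0.46, limma, FDR = 0.221), although it passed with edgeR (0.75), with DESeq2 (0.71) and without IMF-0d replicate 3 (0.70). miR-133a-3p was higher in IMF-0d, with 7.68, 7.82 and 7.53 against 14.5, 18.6 and 10.9 TPM (FDR = 0.033). miR-499-5p, from an intron of the myosin gene MYH7B, was higher in BF-0d, with 20.1 ± 2.65 against 13.02 ± 1.89 TPM (FDR = 0.0426), a call lost with the replicate block (FDR = 0.0845) and after median-of-ratios scaling (FDR = 0.111). miR-206 and miR-133b stayed under 1 TPM in all 6 libraries. The endothelial marker miR-126-3p had 69.8, 36.7 and 68.7 TPM in BF-0d and 30.8, 17.4 and 40.2 TPM in IMF-0d (log2 fold change -0.98, limma, FDR = 0.116, but 0.0119 with the replicate block), and it also passed with DESeq2 and without replicate 2 of both sources. The other endothelial entry, miR-126-5p, had a mean of 0.606 TPM in IMF-0d and 1.23 TPM in BF-0d and did not pass (limma, FDR = 0.0901). It averaged under 1 TPM over the IMF libraries and entered the test through its level in BF, so its direction is a description. Red blood cell markers summed to at most 1.36 TPM in any library, white blood cell markers to at most 0.77 TPM and epithelial markers to at most 1.8985 TPM. All 4 epithelial entries were lower in mean in IMF-0d, on few reads and below the limit for testing. Pooled reads in BF-0d and IMF-0d were 22 and 3 for miR-200b and 11 and 4 for miR-205. They were 4 and 1 for miR-141 and 1 and 0 for miR-429. miR-150 had 0 reads in all 6 libraries, which allows up to 0.178 to 0.328 TPM. The part of muscle or endothelial cells in the differences was not tested. In bulk cultures fewer cells of a kind and less RNA per cell cannot be told apart.

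Of the 160 new entries, 32 were DE-miRNAs, and 30 of them were higher in IMF-0d. The most abundant, novel_miR_650, had 196, 289 and 191 TPM in BF-0d and 834, 1178 and 843 TPM in IMF-0d (log2 fold change 2.08 ± 0.22, limma, FDR = 0.00203). Of the 30, 16 were placed in the genome, 9 of them on the DIO3 scaffold and 7 elsewhere. Among these 7, novel_miR_1018, novel_miR_1137, novel_miR_326, novel_miR_433 and novel_miR_930 were listed on 4 chromosomes with the same mature sequence. That sequence has 43 exact copies in Sscrofa11.1, so the reads cannot be assigned to one of the loci. These entries are at most 1 measurement, although each is counted among the 30. Their means ran from 1.11 to 2.59 TPM in BF-0d and from 3.56 to 5.06 TPM in IMF-0d. The entries higher in BF-0d were novel_miR_394 (86.9 ± 23.0 against 39.4 ± 10.1 TPM, not called after median-of-ratios scaling) and novel_miR_127 (5.03 ± 0.736 against 2.05 ± 0.22 TPM). The smallest log2 fold change of a new DE-miRNA was that of novel_miR_158, at 56.3 ± 9.18 against 85.4 ± 12.3 TPM (log2 fold change 0.60, limma, FDR = 0.0468), a call lost with the replicate block (FDR = 0.102). All new entries together took 0.255% to 0.27% of the reads in BF-0d and 0.356% to 0.379% in IMF-0d.

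For 59 hairpins both arms were tested and placed. In 7 of these both arms were DE-miRNAs, always in one direction: miR-129a, miR-493 and miR-136 higher in IMF-0d and miR-10a, miR-99a, miR-450c and miR-424 higher in BF-0d. Of these arms miR-450c-3p entered the test through its level in BF. In 18 hairpins 1 arm passed, in 34 neither did, and no hairpin had arms called in opposite directions. Called or not, the log2 fold changes of both arms had one sign in 44 of the 59 hairpins.

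The source differences of day 0 were compared with those of the later days of differentiation, each fitted on its own 6 libraries. Of the 126 DE-miRNAs of day 0, 39 were DE-miRNAs in the same direction on day 2, 68 on day 4 and 61 on day 8, where 12.3%, 36.3% and 37.2% of all entries passed. The opposite call was made for 0, 4 and 6 of them. On all 4 days, 29 miRNAs were DE-miRNAs in one direction, 18 higher in IMF and 11 higher in BF. miR-196b-5p was among these 29, with log2 fold changes of 3.79, 3.71 and 4.21 on days 2, 4 and 8, and so were miR-196a, miR-381-3p, miR-758 and both arms of miR-493. On the BF side they included miR-378, miR-378b-3p, miR-10a-5p, miR-424-5p and 3 miR-450 entries.

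The difference itself was tested against day 0 in 1 fit of all 24 libraries. It changed (limma, FDR under 0.05) for 10 entries on day 2 (2.33% of those tested), 79 on day 4 (18.4%) and 89 on day 8 (20.7%). The count of day 2 was 2 to 4 without any one of BF-0d replicates 1 and 3 and IMF-0d replicates 1, 2 and 3, and 12 without BF-0d replicate 2. miR-210 was 3.80 times higher in IMF at day 0, did not pass on day 2 (62.8 ± 21.1 TPM in BF and 61.2 ± 4.66 TPM in IMF), and was higher in BF on days 4 and 8, with log2 fold changes of -1.68 and -0.94. The miR-182 cluster also turned, with miR-182 at 1290 ± 364 TPM in BF and 372 ± 39.6 TPM in IMF on day 8. miR-146b did not pass on day 2, when it was at 5.34 ± 0.745 TPM in BF and 7.69 ± 2.12 TPM in IMF, nor on day 4, at 43.3 ± 9.45 and 34.8 ± 7.09 TPM. On day 8 it was higher in IMF again, at 62.3 ± 12.8 TPM in BF and 129.9 ± 19.04 TPM in IMF (log2 fold change 1.06, limma, FDR = 0.000518). miR-27b-3p did not pass on day 2, at 10460 ± 647 TPM in BF and 9970 ± 2270 TPM in IMF. The miRNAs followed here were chosen for their day-0 differences, and the tests use the same day-0 libraries.

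**Figure D5:**
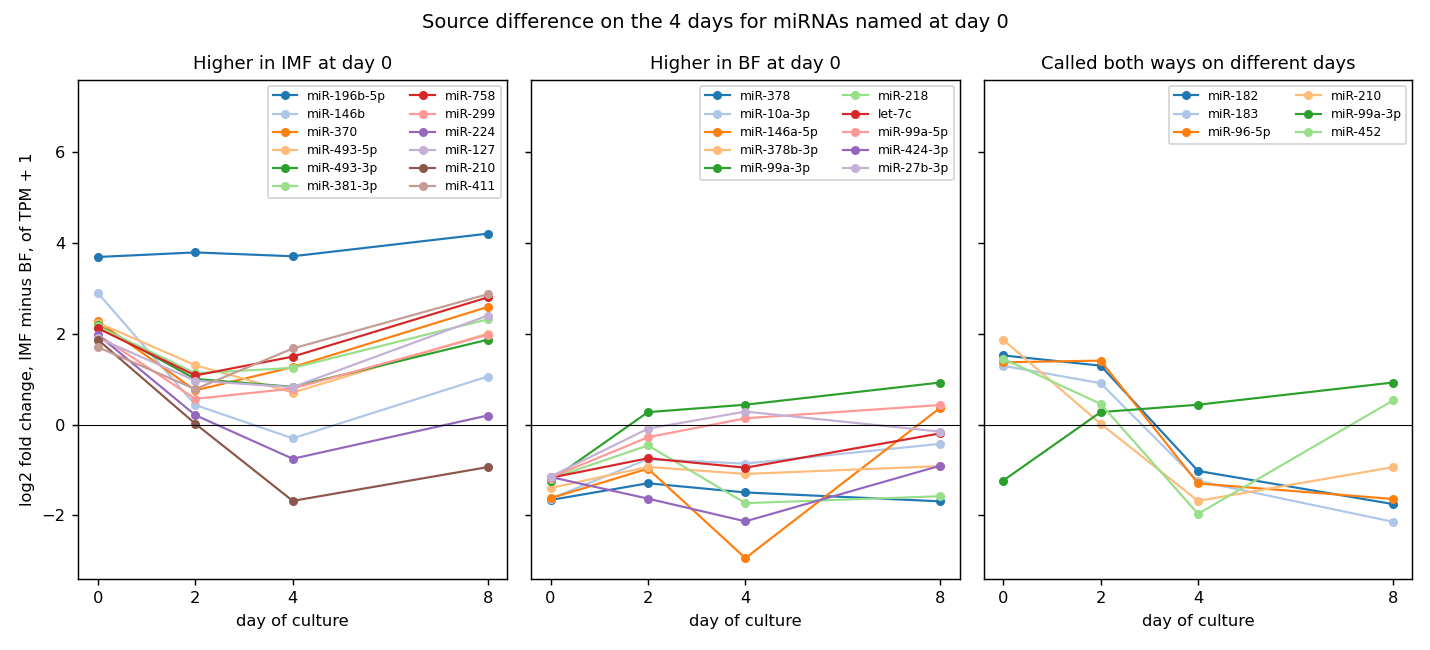
The log2 fold change (IMF minus BF) on days 0, 2, 4 and 8 for miRNAs higher in IMF at day 0 (left), higher in BF at day 0 (middle, with 1 entry for miR-218), and called in opposite directions on different days (right). miR-196b-5p stays between 3.69 and 4.21, miR-378 between -1.69 and -1.30, and miR-210 falls from 1.87 to -1.68 on day 4.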

How the data were processed

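Small RNA of cultured cells was sequenced by the authors, who mapped reads to Sscrofa11.1 with Bowtie without mismatches, named known miRNAs against miRBase and predicted new ones with miRDeep2. The unit of the deposited table is named TPM by the authors but is RPM, the reads of an entry per 1000000 reads on miRNAs: each library sums to 1000000, and every value was a whole number of reads (within 0.05) once divided by the value of 1 read. The labels do not name separate cultures, so p-values measure the spread between these libraries. Depth is given as reads on miRNAs, and PCR copies cannot be told from molecules. The members and gene lists were chosen with earlier results of these data known.

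IMF-0d was compared with BF-0d by limma 3.58.1 (R 4.3.3; empirical Bayes with trend) on log2(TPM + 1), with Benjamini-Hochberg adjustment over 430 entries, a threshold of FDR under 0.05 and fold change over 1.5. This scale understates the change of low entries. An exact permutation test of 3 against 3 libraries cannot go below p = 0.1. Differences between days were contrasts in a fit of all 24 libraries. Named were the 12 known DE-miRNAs at each end of the log2 fold change with separate libraries, the 3 new ones at each end, the 10 most abundant entries, and the listed DE-miRNAs and markers. The miR-129 entries, miR-98 and the other new entries were named after their values were seen. Precursors were placed by exact match to Sscrofa11.1 and annotated from RefSeq: 327 of 336 with a sequence were placed. Whole reads were also tested with edgeR 4.0.16 and DESeq2 1.42.0. Same-numbered libraries of the sources deviated from their group means together (r = 0.188, 0.509 and 0.205), although BF-0d replicate 1 was closest to IMF-0d replicate 3 (r = 0.386), so the replicate number was tried as a block. The fits were tested on simulated data.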

Additional observations from a re-analysis of the deposited data

Results flagged for a closer look

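The source difference (IMF minus BF, log2) was tested on each later day against day 0 in the fit of all 24 libraries, and it differed for 10 entries on day 2, 79 on day 4 and 89 on day 8 (limma, FDR under 0.05). The values are changes of the log2 fold change from day 0, and all miRNAs but miR-486 and novel_miR_793 have been described by their day-0 values. These miRNAs were chosen for their day-0 values, and the same day-0 libraries enter each change.

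Among miRNAs higher in IMF-0d, miR-146b changed by -2.47 on day 2, -3.20 on day 4 and -1.84 on day 8. miR-210 changed by -1.85, -3.55 and -2.81 on the same days, and miR-224 by -1.77, -2.73 and -1.78. In the DLK1-DIO3 domain, miR-381-3p changed by -1.03 on day 2 and -0.92 on day 4, and miR-299 by -1.41 and -1.19. miR-758 changed by -1.04 on day 2, and novel_miR_461 by -1.49 on day 2 and 1.13 on day 8. On day 4 miR-493-5p changed by -1.54, miR-493-3p by -1.36, miR-127 by -1.09 and novel_miR_650 by -0.99. On day 8 miR-411 changed by 1.17, novel_miR_716 by 0.90 and miR-136-3p by 0.75, which widened their differences. novel_miR_158 changed by -0.80 on day 4 and -0.99 on day 8.

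Among miRNAs higher in BF-0d, miR-99a-3p changed by 1.51, 1.67 and 2.16 on days 2, 4 and 8, and miR-27b-3p by 1.06, 1.43 and 0.99. miR-99a-5p changed by 1.31 on day 4 and 1.60 on day 8. On day 8 miR-146a-5p changed by 2.00, miR-10a-3p by 1.21 and let-7c by 0.98. miR-214-3p changed by 1.13 on day 4 and 1.26 on day 8, miR-615 by 0.75 and miR-23b by 0.80 on day 4, and miR-195 by 1.21 on day 8. Other differences widened. miR-138 changed by -2.86 on day 4, where its level in BF was 18.96 ± 22.27 TPM (SD above the mean), and by -2.69 on day 8. Its day-0 difference did not pass in this fit (limma, FDR = 0.185). On day 4 miR-30b-5p changed by -2.43, miR-181b by -1.16, miR-30c-5p by -1.02 and miR-30d by -0.93. The day-0 differences of miR-30b-5p and miR-30c-5p did not pass in this fit either (limma, FDR = 0.0819 and 0.0582). On day 4 miR-30b-5p was at 437 ± 225 TPM in BF.

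Some miRNAs were called in opposite directions on 2 days. On day 4 miR-129a-5p and its duplicate entry miR-129b changed by -2.42 each and miR-452 by -3.42. On day 8 miR-182 changed by -3.28, miR-183 by -3.44, miR-96-5p by -3.01 and novel_miR_793 by -2.35. On day 4, when no member of the miR-182 cluster was called, miR-182 changed by -2.55, miR-183 by -2.54 and miR-96-5p by -2.67. Their levels in BF that day were 848 ± 927, 385 ± 442 and 35.6 ± 43.0 TPM, with each SD above its mean.

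Among the cell type markers, miR-133a-3p changed by -1.60 on day 4, miR-486 by -1.32 on day 4 (with 16 reads in BF-0d and 24 in IMF-0d), and miR-1 by -1.02 on day 4 and -0.95 on day 8.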

How the results depend on the processing

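The DE-miRNAs, 126, were 76 with no filter on low values. Those higher in IMF-0d were 31 among entries of at least 10 TPM. Those higher in BF-0d were 35 with no filter, 38 with median-of-ratios scaling, 37 with edgeR, 41 with DESeq2 (which gave no adjusted p for 19 of 430 entries, not counted as lost) and 40 without replicate 2 of both sources. Leaving out 1 library gave 86 to 105 DE-miRNAs, 44 to 53 higher in IMF-0d and 41 to 55 higher in BF-0d. The replicate block gave 127 (55 and 72). It removed the calls of miR-499-5p, novel_miR_158 and novel_miR_683, gave calls to miR-126-3p, miR-24-3p, miR-107, miR-450b-3p and miR-542-3p, and changed no other call among the miRNAs of the lists, of the DIO3 scaffold or named by the rule. The day-2 changes, 10, were 4 with no filter, 17 with median-of-ratios scaling, 3 without replicate 2 of both sources and 2 to 12 without 1 library. The day-8 changes, 89, were 47 among entries of at least 10 TPM and 79 to 86 without 1 library, and the day-4 changes 63 to 79. The cause was not tested.

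Of 1510 values for named miRNAs, 1265 kept direction and call, 217 lost and 10 gained the call, and 18 changed sign, all in miRNAs that were not DE-miRNAs. Without 1 library in turn, miR-21-5p ranged from -0.0355 to 0.06035, miR-148a-3p from -0.05688 to 0.2496, miR-143-3p from -0.03681 to 0.1832, miR-151-3p from -0.3057 to 0.1391, miR-10b from -0.51 to 0.03329 and miR-122-5p from -0.2923 to 0.2698. With median-of-ratios scaling, edgeR and DESeq2, miR-151-3p was at 0.0635, 0.130 and 0.0911 and miR-122-5p at 0.0616, 0.235 and 0.179. miR-10b was at 0.0209 with edgeR, and miR-122-5p at 0.153 without replicate 2 of both sources. Where 1 read is worth up to 0.109 TPM, small differences of entries near 1 TPM were not detectable.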
